A study of Mus musculus with 14 samples.

Results

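Interferon-response and antigen-presentation genes were followed across 5 sorted cell populations of the mouse mammary gland. Members were the genes whose symbol belongs to the H2, Ifi, Ifn, Irf, Oas, Isg, Gbp, Irgm, Iigp, Igtp or Trim families, to the numbered Stat genes, or to a short list of single genes (Psmb8, Psmb9, Psmb10, Tap1, Tap2, Tapbp, B2m, Ciita, Mx1, Mx2, Rsad2, Usp18, Bst2, Ido1, Rtp4, Xaf1 and Dtx3l). Of the 6044 genes with a single-symbol probe set in the table, 70 were members, and they were measured by 90 probe sets. The table keeps only probe sets that varied by at least 2.0 log2 units over the arrays, so every member had passed a filter on variation before any comparison, and genes such as B2m, Tap1, Isg15 and Cd74 were not analysed here. Another 12 probe sets name several genes of which at least 1 carries a member's family name, 4 of them with an H2 symbol, and these were not used.

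Mammary cells of virgin female C57BL/6 mice, aged 6 to 8 weeks, had been stained for the CD45, CD31 and Ter119 lineage antigens and double sorted on CD24, CD49f and Thy-1, and RNA of each population was hybridised to Affymetrix arrays, 14 in all. The luminal populations were CD24highCD49fmed (luminal progenitors, n = 3) and CD24medCD49f-/low (differentiated luminal cells, n = 2). The basal populations were Thy-1+CD24medCD49fhigh (stem cells, hereafter Thy-1+, n = 3), Thy-1-CD24medCD49fhigh (progenitors, hereafter Thy-1-, n = 3) and CD24medCD49fmed (myoepithelial cells, n = 3), as the submitters named them. The labels name no treatment and no transgene. Whether replicates came from separate animals was not stated, so the p-values measure the spread between these samples. In sorted bulk RNA, fewer cells of a type and less RNA per cell cannot be told apart.

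Interferons are secreted proteins that bind paired receptors and, through Jak kinases, activate Stat and Irf transcription factors, which switch on a broad set of antiviral genes. Type I interferon acts chiefly through a complex with Stat2 and Irf9 that binds the interferon-stimulated response element, and interferon gamma through gamma-activated sites. Class I antigen presentation, which interferon raises, joins peptides cut by the proteasome to class I heavy chains and shows them to CD8+ T cells. Class II molecules carry peptides from engulfed protein and are mostly made by professional antigen-presenting cells. Trim genes encode a broad family of ubiquitin ligases, of which only some are interferon-induced.

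Values are log2 expression, centred by the submitters on each probe set's mean over the 14 arrays, so that 0 is that mean and no absolute level can be read. Differences are in log2 units, with luminal minus basal taken as the mean of the luminal group means less the mean of the basal group means, and a change was called at an adjusted p under 0.05 (limma, two-sided, Benjamini-Hochberg over all 7190 rows). The markers matched the labels of both compartments. All 12 basal epithelial markers (such as Krt5, Krt14 and Acta2) were lower and all 11 measured luminal markers (such as Elf5, Ehf and Foxa1) were higher in luminal cells. Some basal arrays stood apart. The median over all probe sets was -0.75 in Thy-1+ replicate 1, -0.52 in Thy-1+ replicate 3 and -0.15 in Thy-1- replicate 2, and luminal against basal values without these 3 arrays, a choice made after the data were seen, are given where a call changed or the values turned on them. The median endothelial marker was 2.70 in Thy-1+ replicate 1 and 2.29 in CD24medCD49fmed replicate 1. The median pericyte marker was 3.02 and 1.34 in these arrays. The median fibroblast marker was 2.61 in Thy-1+ replicate 3 and 1.14 in Thy-1+ replicate 1. No dendritic marker of 6, 2 of 14 lymphoid markers and 5 of 20 myeloid markers were in the table, and of the myeloid markers only Cd14 was called higher in luminal cells (3.23).

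The letters of interferon elements stood in the promoters of members that were higher, lower or not called in luminal cells. In RefSeq sequence (GRCm38.p6), 57 members had a window of 250 bases before the annotated start. The core GAAANNGAA of the interferon-stimulated response element, searched on both strands, was found in 15 of 57 members (26.3%), against 274 of 4787 genes in the table (5.72%) and 1934 of 27025 annotated genes (7.16%). The core TTCNNNGAA of the gamma-activated site was found in 13 of 57 members (22.8%), against 5.29% of genes in the table and 7.18% of annotated genes. The 2 cores may overlap each other. Among members called higher in luminal cells, 2 of 16 held GAAANNGAA (12.5%) and 2 of 16 held TTCNNNGAA (12.5%), and among members not called, 11 of 37 (29.7%) and 10 of 37 (27.0%). Among the members called lower, 2 of 4 held GAAANNGAA and 1 of 4 held TTCNNNGAA. A match is a run of letters and not a shown binding site. Stretches are printed for genes that were higher in luminal cells (Ifih1, Psmb8, Isg20), lower (Gbp3, Ifit3) or not called (Ifit1, Irgm2, Irf1), because the same letters stood before genes that moved in both directions. Capitals mark the matches, of TTCNNNGAA in Psmb8, Isg20 and Irf1, of both cores in Irgm2, and of GAAANNGAA in the others, most of them on the opposite strand.
Ifih1 (chr2:62646344-62646382, minus strand): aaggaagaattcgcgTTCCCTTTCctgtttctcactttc
Psmb8 (chr17:34198083-34198121, plus strand): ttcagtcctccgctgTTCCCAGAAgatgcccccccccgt
Isg20 (chr7:78913336-78913374, plus strand): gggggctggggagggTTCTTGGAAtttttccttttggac
Gbp3 (chr3:142559985-142560029, plus strand): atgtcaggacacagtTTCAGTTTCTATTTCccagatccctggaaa
Ifit3 (chr19:34583359-34583450, plus strand): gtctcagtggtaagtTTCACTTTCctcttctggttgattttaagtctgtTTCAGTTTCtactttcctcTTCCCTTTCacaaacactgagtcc
Ifit1 (chr19:34640765-34640828, plus strand): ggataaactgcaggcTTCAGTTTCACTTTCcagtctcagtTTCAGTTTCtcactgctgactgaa
Irgm2 (chr11:58214887-58214936, plus strand): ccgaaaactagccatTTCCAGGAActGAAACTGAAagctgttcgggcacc
Irf1 (chr11:53769909-53769947, plus strand): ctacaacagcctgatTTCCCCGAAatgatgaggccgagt
The match in Ifih1 began 112 bases before the start, that in Psmb8 97 and that in Isg20 73 bases before it. The windows of H2-K1, H2-Q2, Psmb9, Tapbp, Stat5a, Irf9, Ifi35 and Dtx3l held neither core, and Ido1, Trim14 and Usp18 were not in the sequence table.

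Luminal cells differed from basal cells in a subset of members. The largest differences above 0 were those of the tryptophan-degrading enzyme Ido1 and the antiviral adaptor Trim14. The class I gene H2-Q2, the GTPase Iigp1 and the immunoproteasome subunit Psmb8 came next. The largest below 0 was that of Ifi202b (-2.44), which in size exceeded those of H2-Q2, Iigp1 and Psmb8. Of the 70 members, 21 were higher (30.0%, against 27.7% of all rows) and 5 were lower (7.14%, against 17.4% of all rows). The members' median difference was 0.351, and that of all rows was 0.332. The share of members that were higher was thus close to that of the whole table. The luminal arrays did not overlap the basal arrays in 15 members that lay higher (21.4%, against 16.5% of all rows) and 2 that lay lower (2.86%, against 9.51%), Gbp3 and Ifi202b. Because all rows shifted by more than 0.1, the split was also read with each array centred on its own median. It was then 14 higher (20.0%, against 20.0% of all rows) and 11 lower (15.7%, against 21.7%), with the 14 all among the 21. H2-K1, Ifnlr1, Irf9, Isg20, Tapbp, Trim2 and Trim65 were no longer called higher, and Ifi27l2a, Ifit2, Irgm1, Irgm2, Trim32 and Trim35 were called lower. Without the 3 basal arrays of low median, 28 members were higher (against 29.8% of all rows), among them all of the 21, and 11 were lower (15.7%, against 24.8%), among them 4 of the 5 and not Ifit3. Markers of other cell types were lower in luminal cells beside the members that were lower. Of the measured markers, 8 of 14 endothelial (median difference -1.26), 5 of 8 fibroblast (median -1.14) and 4 of 5 pericyte markers (median -1.32) were called lower, and 1 pericyte marker, Notch3, was called higher. The part of such cells in the lower values of Gbp3, Ifit3 and Ifi202b was not tested. The heat map of called members shows each array.

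**Figure D1:**
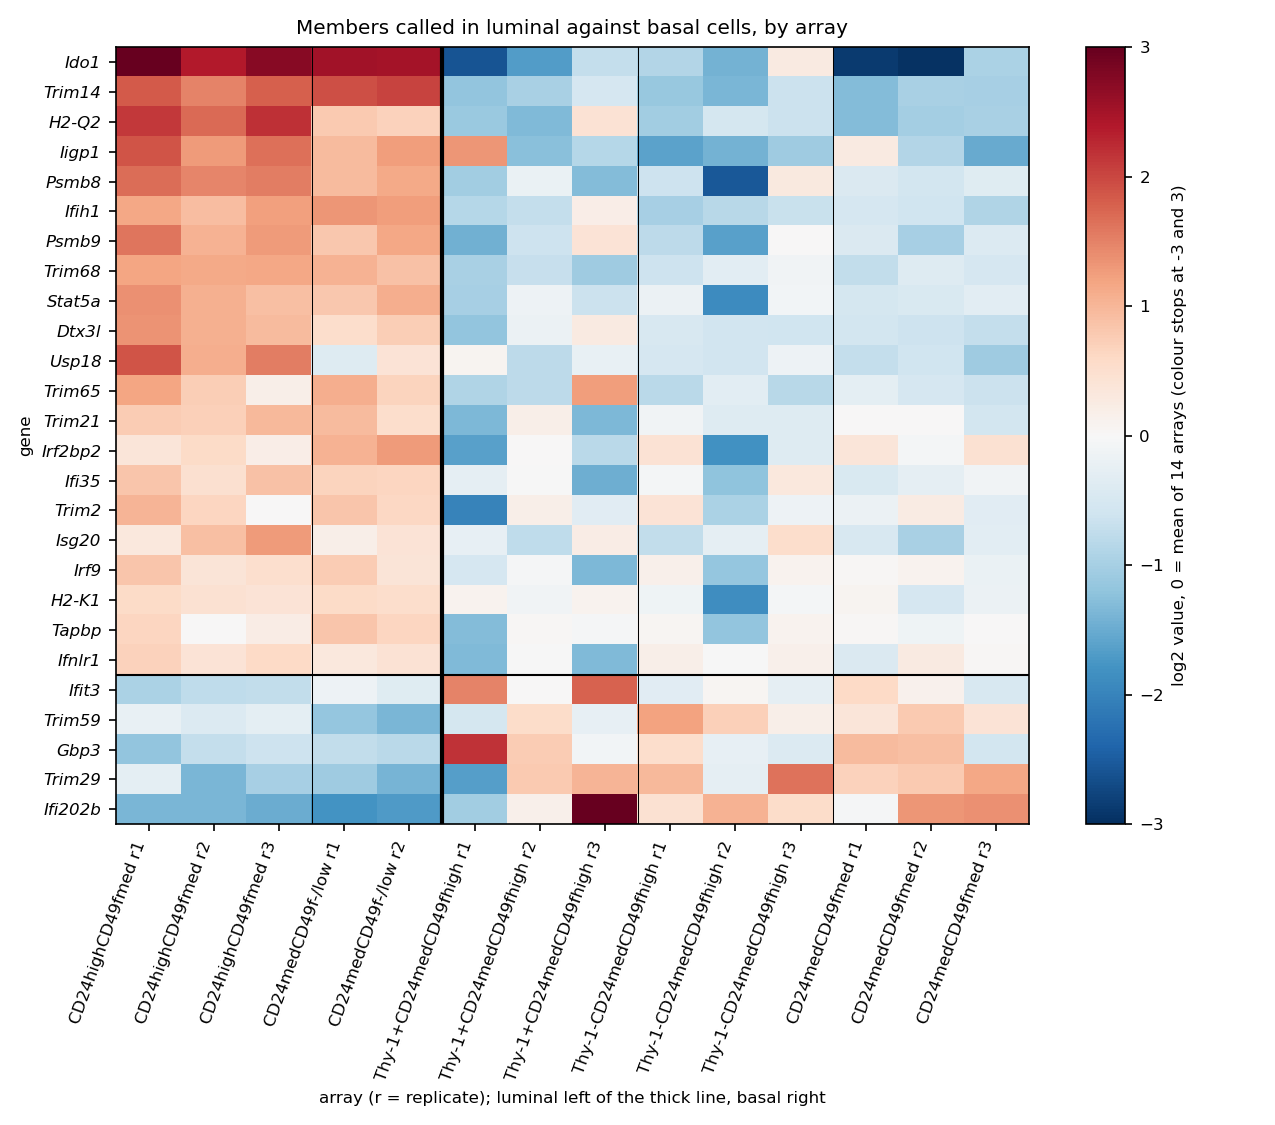
Log2 values (0 is the mean of 14 arrays) of the 26 members called in luminal against basal cells, 1 column per array, with the 5 luminal arrays left of the 9 basal arrays and the 21 higher members above the 5 lower ones. The colour scale stops at -3 and 3, which Ifi202b (3.91) in Thy-1+ replicate 3 and Ido1 (3.67) in CD24highCD49fmed replicate 1 exceed.

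Of the 21 higher members, 9 were also called with each luminal population alone set against the basal ones, namely Ido1, Trim14, H2-Q2, Iigp1, Psmb8, Psmb9, Ifih1, Trim68 and Stat5a. With CD24highCD49fmed alone, 15 members were higher (21.4%, against 23.0% of all rows) and 5 lower (7.14%, against 14.2%). With CD24medCD49f-/low alone, which has 2 arrays, 9 were higher (12.9%, against 8.16%) and 3 lower (4.29%, against 9.29%). The same 9 were called in all alternative fits with limma, including those that left out a single array. When each of the 14 arrays was left out in turn, 14 of the 21 higher and 4 of the 5 lower members kept their call every time. These fits called 1178 to 2820 of all 7190 rows higher and 946 to 1450 lower, against 1989 and 1253 in the main fit. How many of all rows kept their call in every fit was not counted. Whether these members were more stable than other rows can therefore not be read. The call of H2-K1 was lost without any luminal array or without CD24medCD49fmed replicate 2 or 3 (highest adjusted p = 0.125), and that of Ifnlr1 without any luminal array or without CD24medCD49fmed replicate 1 or 3 (highest adjusted p = 0.135). Tapbp lost its call without any luminal array, any CD24medCD49fmed array or Thy-1- replicate 2 (highest adjusted p = 0.149). Irf9 lost it without CD24highCD49fmed replicate 1 or either CD24medCD49f-/low array (highest adjusted p = 0.114), Isg20 without CD24highCD49fmed replicate 3 or either CD24medCD49f-/low array (highest adjusted p = 0.100), and Irf2bp2 without CD24medCD49f-/low replicate 2 (adjusted p = 0.0662). Trim2 lost it without CD24highCD49fmed replicate 1 or 2, either CD24medCD49f-/low array or Thy-1- replicate 2 (highest adjusted p = 0.104). Of the uncalled members, 8 were called higher and 8 lower in at least 1 of these fits.

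Peptide supply, with only 4 members, was the role with the highest median difference, 1.29, against 0.332 for all rows. Higher in luminal cells were 3 of the 4 (against 27.7% of all rows), and the Tapbp call was not stable. Psmb8 and Psmb9 encode catalytic subunits of the immunoproteasome, the inducible form that trims proteins to peptides suited to class I molecules. Psmb8 was 1.68, 1.46 and 1.54 in CD24highCD49fmed and 0.95 and 1.14 in CD24medCD49f-/low cells, against -2.54, -0.55 and 0.29 as the lowest, median and highest of the 9 basal arrays. Psmb9 was 1.6, 1.04 and 1.27 in CD24highCD49fmed and 0.81 and 1.16 in CD24medCD49f-/low cells, against -1.64, -0.61 and 0.41 in basal arrays. For both subunits every luminal array lay above every basal array. The differences were 2.06 ± 0.37 for Psmb8 (SE, adjusted p = 0.000156) and 1.80 ± 0.34 for Psmb9 (SE, adjusted p = 0.000252). Tapbp encodes tapasin, which bridges class I molecules to the peptide transporter. It was 0.65, 0.02 and 0.21 in CD24highCD49fmed and 0.84 and 0.65 in CD24medCD49f-/low cells, against -1.31, 0.01 and 0.11 in basal arrays, with a difference of 0.78 ± 0.31 (SE, adjusted p = 0.0466). The groups overlapped, and with array centring the Tapbp difference was 0.52 with an adjusted p of 0.118. Ifi30, a lysosomal thiol reductase of the class II route, was not called (-0.11 ± 0.30, SE).

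Of the 4 class I genes, H2-K1 and H2-Q2 were higher in luminal cells (against 27.7% of all rows). The fourth, H2-M3, a non-classical gene, was not called (0.19), and its difference was -0.078 with array centring and -0.13 with CD24medCD49f-/low alone. H2-Q2 encodes a class I-like heavy chain of the Q region. It was 2.11, 1.70 and 2.20 in CD24highCD49fmed and 0.78 and 0.70 in CD24medCD49f-/low cells, against -1.33, -1.02 and 0.44 in basal arrays. Its difference was 2.21 ± 0.31 (SE, adjusted p = 9.63e-06). H2-K1, a classical class I heavy chain, was 0.57, 0.45 and 0.41 in CD24highCD49fmed and 0.57 and 0.52 in CD24medCD49f-/low cells, against -1.86, -0.10 and 0.11 in basal arrays, with a difference of 0.79 ± 0.31 (SE, adjusted p = 0.0418). The other classical heavy chain, H2-D1, was 0.49, 0.45, 0.28, 0.56 and 0.49 in the luminal arrays, against -1.93, 0.01 and 0.22 in basal arrays, and was not called (0.72 ± 0.32, SE, adjusted p = 0.0771). In both classical genes, each averaged over its probe sets, every luminal array lay above every basal one. Thy-1- replicate 2 lay far below the other basal arrays. The H2-D1 probe set with the lowest difference of 4 (0.45) did overlap. It ranged from -0.03 to 0.49 in luminal arrays and from -1.52 to 0.63 in basal arrays. Without the 3 basal arrays of low median, the difference of H2-D1 was 0.54 ± 0.18 (SE, adjusted p = 0.024) and that of H2-K1 0.64 ± 0.16 (SE, adjusted p = 0.00437). With array centring H2-K1 was not called (0.53, adjusted p = 0.159). Class I genes are near-identical in sequence, so their probe sets may not tell them apart.

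**Figure D2:**
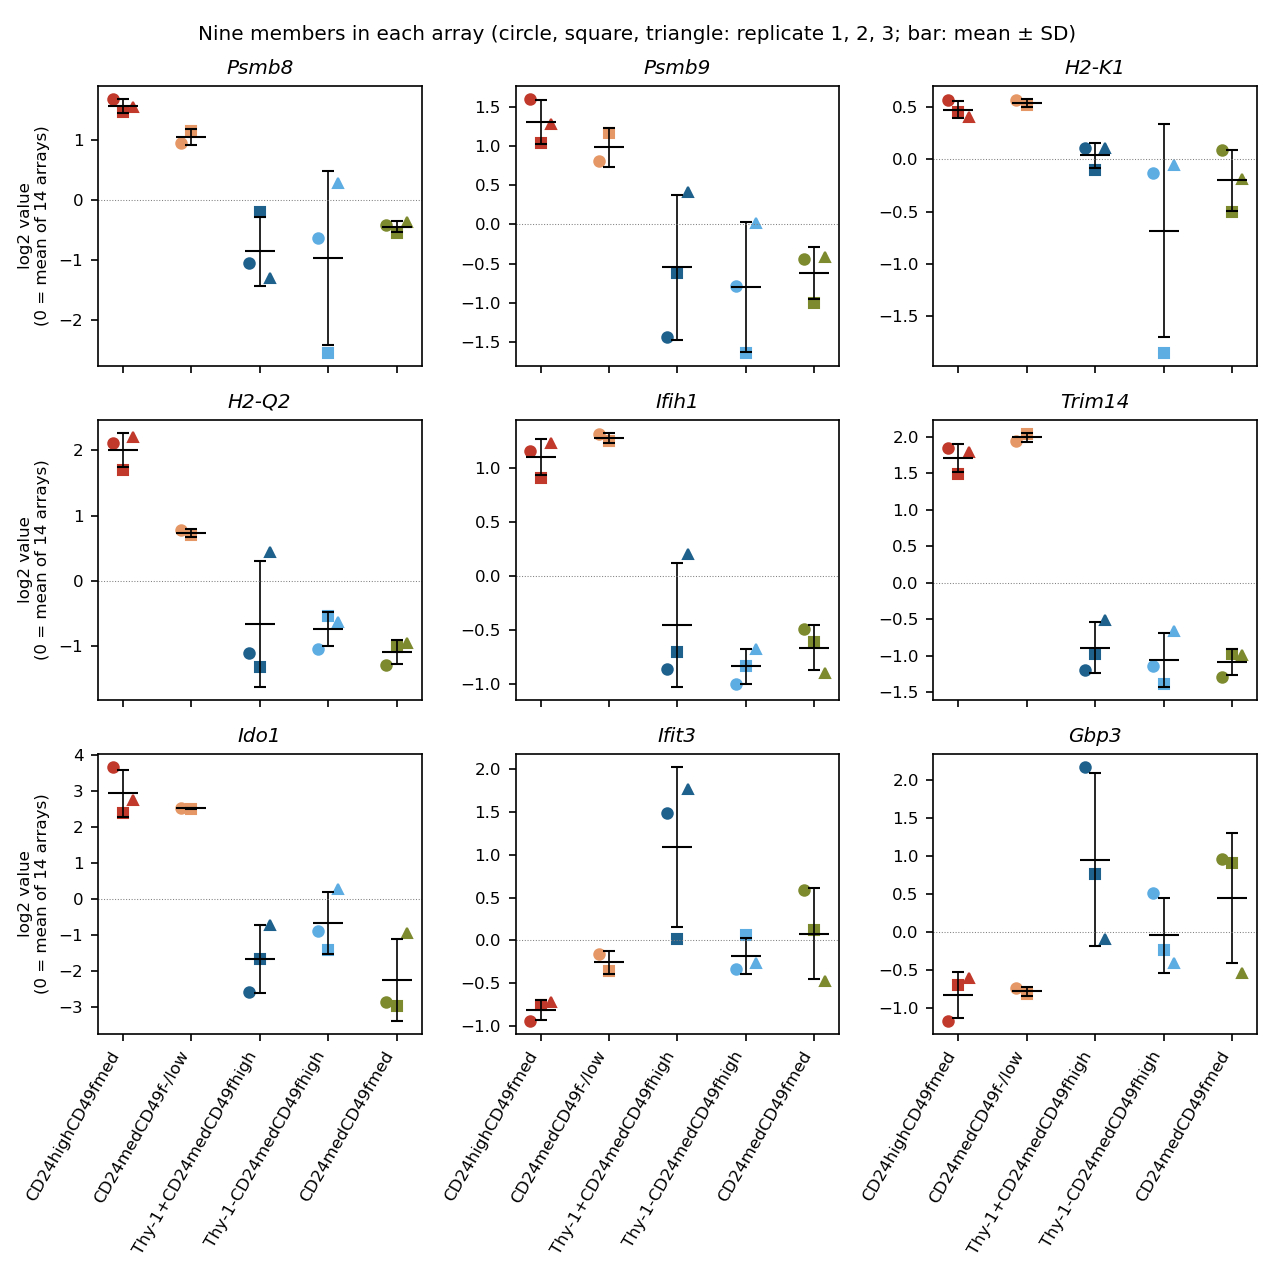
Log2 values (0 is the mean of 14 arrays) of 9 members in each array by population, luminal populations left of basal ones, with points for replicates 1, 2 and 3 and bars for mean ± SD. Psmb8, Psmb9, H2-K1, H2-Q2, Ifih1, Trim14 and Ido1 lie higher in every luminal array than in every basal one, and Gbp3 lies lower in every luminal array.

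Neither class II member was called. H2-Aa, a chain of a class II molecule, was -0.86, -0.39 and -0.91 in CD24highCD49fmed and 0.26 and -0.13 in CD24medCD49f-/low cells, against -0.70, 0.04 and 2.61 in basal arrays (difference -0.55 ± 0.41, SE). H2-DMb2, a chain of the peptide-exchange factor, was between -0.42 and 0.00 in luminal arrays and between -0.78 and 1.94 in basal arrays (difference -0.27 ± 0.37, SE). Both peaked in Thy-1+ replicate 1, the array with the highest endothelial and pericyte marker medians. The medians of the 5 measured myeloid and 2 measured lymphoid markers were -0.55 and -1.45 there, with the myeloid marker Laptm5 at 1.67. The part of all these cells in the values was not tested. Without the 3 basal arrays of low median the difference of H2-DMb2 was 0.05 and that of H2-Aa -0.37.

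Among the 4 interferons and receptors, Ifnlr1 alone was called (against 27.7% of all rows higher and 17.4% lower). It encodes the chain of the interferon lambda receptor that is largely restricted to epithelium. Ifnlr1 was 0.70, 0.42 and 0.61 in CD24highCD49fmed and 0.32 and 0.42 in CD24medCD49f-/low cells, against -1.33, 0.00 and 0.26 in basal arrays. The groups did not overlap, and the difference was 0.75 ± 0.29 (SE, adjusted p = 0.0386), which with array centring was 0.48 with an adjusted p of 0.0729. Ifnar2, a chain of the type I receptor, was not called (0.47 ± 0.34, SE). The type I interferon genes Ifna11 and Ifnab were not called either (-0.16 ± 0.39 and -0.26 ± 0.31, SE), and both were highest in Thy-1+ replicate 3, at 2.00 and 2.03.

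Of the 7 transcription factors, Stat5a and Irf9 were higher in luminal cells (against 27.7% of all rows). Stat5a, best known in this tissue for carrying the prolactin signal, was 1.38, 1.07 and 0.91 in CD24highCD49fmed and 0.81 and 1.08 in CD24medCD49f-/low cells, against -1.88, -0.46 and -0.09 in basal arrays, without overlap (difference 1.62 ± 0.32, SE, adjusted p = 0.000358). Irf9, the DNA-binding partner of Stat2, was 0.83, 0.39 and 0.50 in CD24highCD49fmed and 0.76 and 0.38 in CD24medCD49f-/low cells, against -1.35, -0.03 and 0.16 in basal arrays (difference 0.89 ± 0.31, SE, adjusted p = 0.0237). With array centring Irf9 was 0.62 higher with an adjusted p of 0.0637. Stat2 (0.60), Irf3 (0.47), Irf2 (0.45), Irf8 (-0.17) and Irf1 (-0.49) were not called. Irf1, an early interferon gamma target, was between -0.54 and 0.01 in luminal arrays and between -1.92 and 0.69 in basal arrays, with Thy-1- replicate 2 at the bottom. Without that array its difference was -0.78 with an adjusted p of 0.0194.

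The interferon-induced GTPases, which attack vacuoles of intracellular pathogens, moved in both directions. Iigp1 was higher (against 27.7% of all rows), Gbp3 lower (against 17.4%), and the other 4 were not called. The median difference was -0.44, against 0.332 for all rows. Iigp1 was 1.89, 1.27 and 1.64 in CD24highCD49fmed and 0.94 and 1.26 in CD24medCD49f-/low cells, against -1.60, -1.07 and 1.32 in basal arrays (difference 2.13 ± 0.39, SE, adjusted p = 0.000186). The basal maximum, in Thy-1+ replicate 1, overlapped the luminal range. Gbp3 was -1.17, -0.70 and -0.61 in CD24highCD49fmed and -0.74 and -0.82 in CD24medCD49f-/low cells, against -0.54, 0.52 and 2.17 in basal arrays, without overlap (difference -1.25 ± 0.37, SE, adjusted p = 0.00894). Irgm1 (-0.60), Irgm2 (-0.64), Gbp7 (-0.28) and Gbp6 (-0.12) were not called. With array centring Irgm1 (-0.87, adjusted p = 0.0334) and Irgm2 (-0.90, adjusted p = 0.0465) were called lower. The 2 probe sets of Gbp6 differed in sign.

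**Figure D3:**
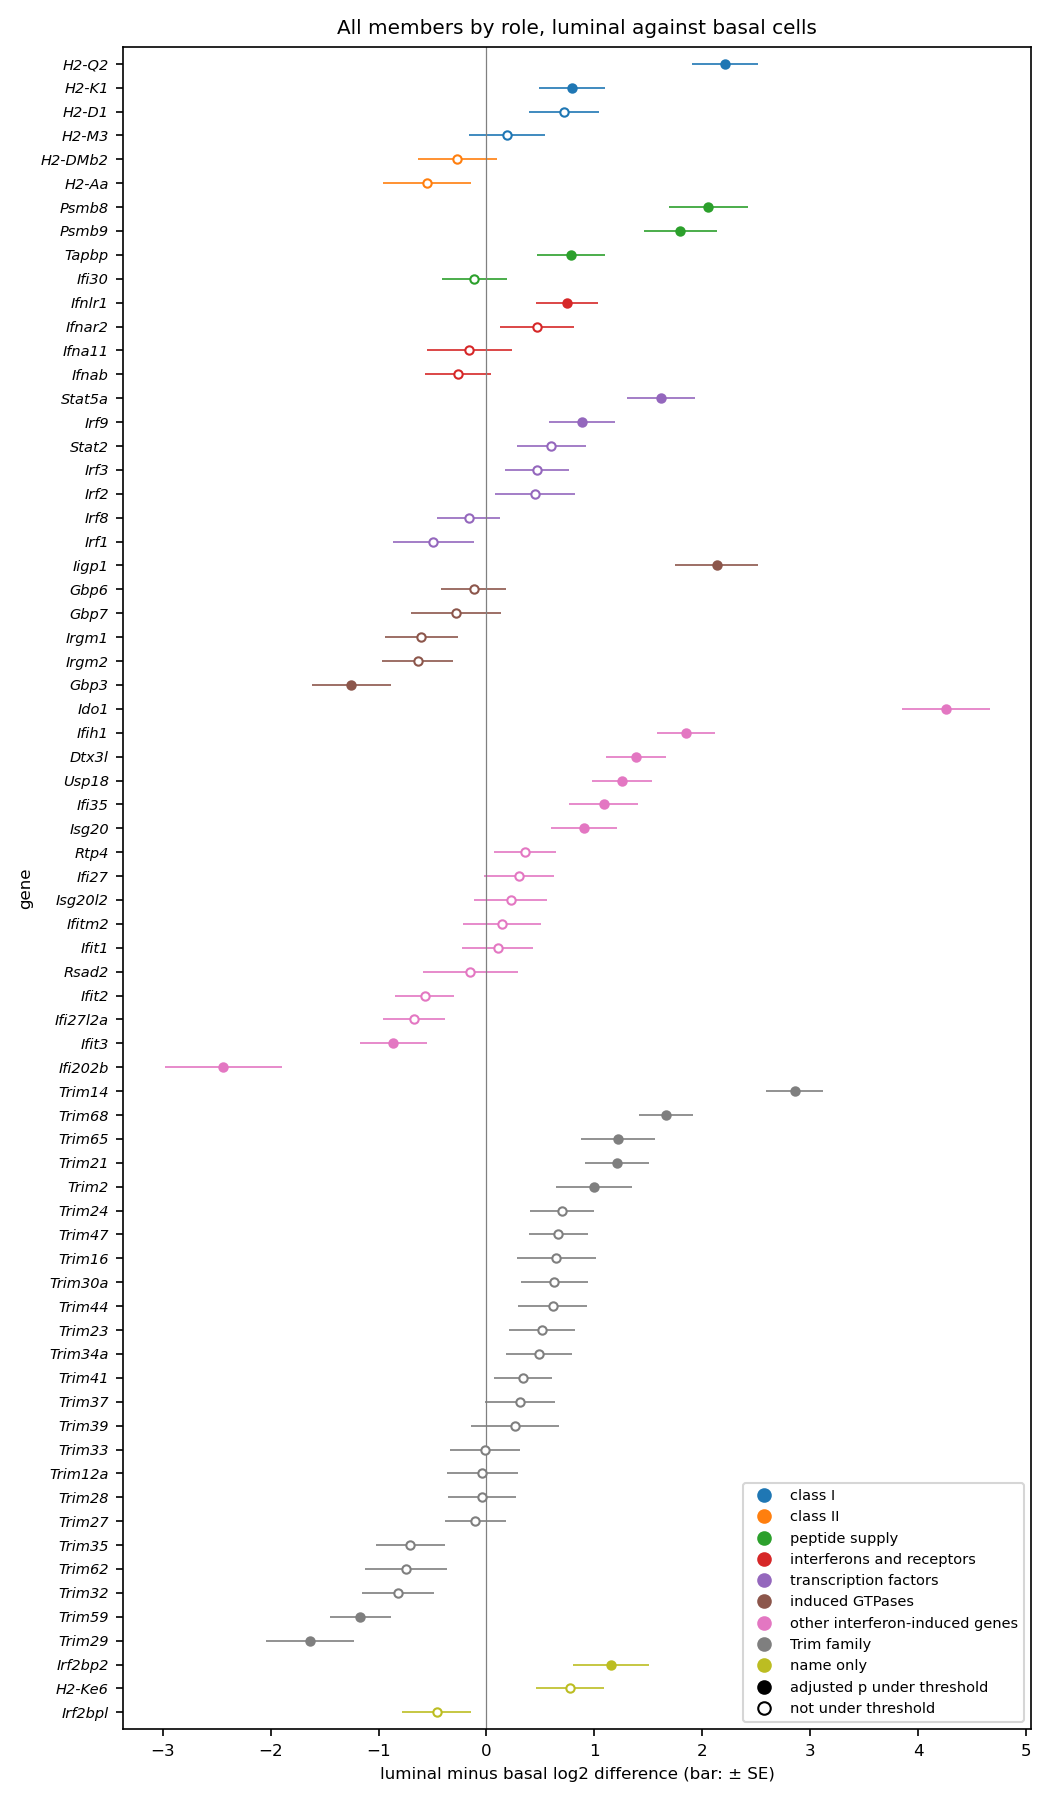
Luminal minus basal log2 difference (points, with bars of ± SE) for all 70 members, grouped by role and coloured by it, with filled points for members called at an adjusted p under 0.05. Filled points lie on the right for 21 members and on the left for 5.

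Of the 16 other interferon-induced genes, 6 were higher (against 27.7% of all rows) and 2 lower (against 17.4%). Ido1 encodes the enzyme that opens the tryptophan catabolic route. It was 3.67, 2.39 and 2.73 in CD24highCD49fmed and 2.53 and 2.5 in CD24medCD49f-/low cells, against -2.96, -1.41 and 0.26 in basal arrays. Ido1 had the largest difference of all members, 4.26 ± 0.41 (SE, adjusted p = 9.00e-08), with no overlap. Ifih1 encodes Mda5, a cytosolic sensor of long double-stranded RNA. It was 1.16, 0.91 and 1.24 in CD24highCD49fmed and 1.32 and 1.25 in CD24medCD49f-/low cells, against -1.0, -0.70 and 0.20 in basal arrays (difference 1.85 ± 0.27, SE, adjusted p = 1.67e-05). Dtx3l, a ubiquitin ligase that pairs with Parp9, was 1.38 ± 0.28 higher (SE, adjusted p = 0.000486). Usp18, which strips Isg15 from proteins and dampens the type I receptor, was 1.26 ± 0.28 higher (SE, adjusted p = 0.00119). Its call rested on CD24highCD49fmed cells, with a difference of 2.01 for that population alone (adjusted p = 0.000178) and of 0.50 for CD24medCD49f-/low alone (adjusted p = 0.467). Ifi35 (1.09) and the exonuclease gene Isg20 (0.90) were also higher, with Isg20 not called under array centring (0.64).

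None of the Ifit genes, nor Rsad2 or Rtp4, was called higher in luminal cells. Ifit3, which belongs to a family that binds foreign RNA, was -0.95, -0.76 and -0.73 in CD24highCD49fmed and -0.16 and -0.36 in CD24medCD49f-/low cells, against -0.48, 0.06 and 1.76 in basal arrays. Its difference was -0.86 ± 0.31 (SE, adjusted p = 0.0304). The highest basal arrays were Thy-1+ replicates 3 (1.76) and 1 (1.49), and without the 3 basal arrays of low median Ifit3 was not called (-0.47, adjusted p = 0.0682). The call was also lost with quantile normalization (-0.74, adjusted p = 0.0692), with CD24medCD49f-/low alone (-0.59, adjusted p = 0.449) and when any luminal array or CD24medCD49fmed replicate 1 was left out (highest adjusted p = 0.121). Ifit1 (0.10), Ifit2 (-0.57), Rsad2 (-0.15), Rtp4 (0.36), Ifi27 (0.30), Ifi27l2a (-0.67), Ifitm2 (0.14) and Isg20l2 (0.22) were not called. Ifi202b, a DNA-binding member of the Ifi200 family, was -1.38, -1.36, -1.49, -1.80 and -1.71 in luminal arrays, against -1.04, 0.55 and 3.91 in basal arrays, without overlap. Its difference was -2.44 ± 0.54 (SE, adjusted p = 0.00117), and without the 3 basal arrays of low median it was -2.09 ± 0.25.

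Of the 24 Trim genes, 5 were higher (against 27.7% of all rows) and 2 lower (against 17.4%). Their median difference was 0.41, against 0.332 for all rows. Trim14, an adaptor of mitochondrial antiviral signalling, was 1.84, 1.49 and 1.79 in CD24highCD49fmed and 1.94 and 2.03 in CD24medCD49f-/low cells, against -1.38, -0.99 and -0.51 in basal arrays. Every luminal array lay at least as high as 1.49 and every basal array below 0. The difference was 2.86 ± 0.26 (SE, adjusted p = 5.33e-08). Trim68 was 1.66 ± 0.25 higher (SE, adjusted p = 2.56e-05), also without overlap. Trim65, a ligase for Mda5, was 1.22 ± 0.34 higher (SE, adjusted p = 0.00723). Trim21, a cytosolic antibody receptor, was 1.21 ± 0.30 higher (SE, adjusted p = 0.00276). Trim2 was 0.99 higher. Trim29, a family member without a RING domain, was lower (-1.63 ± 0.41, SE, adjusted p = 0.00316), although Thy-1+ replicate 1, at -1.64, lay below every luminal array. Trim59 was also lower (-1.17 ± 0.28, SE, adjusted p = 0.00225). The transcriptional cofactors Trim24 (0.70), Trim28 (-0.04) and Trim33 (-0.01) were not called. Among the 3 genes matched by name only, Irf2bp2 was higher (1.15, adjusted p = 0.0124), and H2-Ke6 (0.77) and Irf2bpl (-0.46) were not called.

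Of a list of 82 other genes of these pathways, 32 were in the table. Of the 32, 16 were higher (against 27.7% of all rows) and 1, Slfn5 (-1.08), was lower in luminal cells (against 17.4%), with a median difference of 0.77, against 0.332 for all rows. The largest differences were those of Slfn2 (1.83) and Phf11d (1.42). Jak2, the kinase of the interferon gamma receptor, was higher by 0.83, and Tlr3 and Ddx58, sensors of double-stranded RNA, by 1.39 and 1.01. Parp9, the partner of Dtx3l, was higher by 1.39, and Psme1, a proteasome activator subunit, by 0.91. Psmb5, whose product is the constitutive counterpart of Psmb8, was also higher, by 0.90. Among the genes not called were Calr (0.97), Psmb7 (0.72), Psmb6 (0.67), Ctss (-0.46) and Socs3 (-0.76). Values of the listed genes with array centring are not given here. No gene of this list was called in the other comparisons.

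Within the luminal compartment, CD24highCD49fmed cells differed from CD24medCD49f-/low cells in 4 members. Higher were 3 members (4.29%, against 3.02% of all rows), Usp18, H2-Q2 and Trim59, and lower was 1 (1.43%, against 2.57%), Ifit2. With array centring the counts were 3 (4.29%, against 1.75%) and 4 (5.71%, against 3.84%), and Ifit1, Irf2bp2 and Trim47 joined the lower members. Usp18 was 1.89, 1.09 and 1.54 in CD24highCD49fmed cells, against -0.40 and 0.40 in CD24medCD49f-/low cells (difference 1.5 ± 0.30, SE, adjusted p = 0.0311). H2-Q2 differed by 1.27 ± 0.21 (SE, adjusted p = 0.0196), from the array values given above. Trim59 was -0.23, -0.40 and -0.30 in CD24highCD49fmed cells, against -1.15 and -1.37 in CD24medCD49f-/low cells (difference 0.95 ± 0.18, SE, adjusted p = 0.0269). In each of these 3 the groups did not overlap.

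Ifit2 was -1.25, -0.51 and -0.82 in CD24highCD49fmed cells, against 0.06 and 0.33 in CD24medCD49f-/low cells (difference -1.05 ± 0.24, SE, adjusted p = 0.0451). Ifit1 (-1.03, adjusted p = 0.0539), Trim47 (-1.08, adjusted p = 0.0519) and H2-Aa (-0.79, adjusted p = 0.0787) were not called. The array CD24medCD49f-/low replicate 1 was the higher of its pair for Ifit1 (1.04 against 0.20 in replicate 2) and Rtp4 (1.20 against -0.13). The median of the 5 measured myeloid markers was -0.59, -0.72 and -0.46 in CD24highCD49fmed cells, against 1.67 and 0.22 in CD24medCD49f-/low replicates 1 and 2. Of these markers, Cd14 (-1.05) and Laptm5 (-2.08) were called lower in CD24highCD49fmed cells, and Lyz2, C1qb and Ptprc were not called. Cd14 was 1.22 to 2.78 in the luminal arrays and -1.60 to -0.60 in the basal arrays. It therefore cannot tell myeloid from luminal cells here, and the median above includes it. All 8 fibroblast markers had a difference below 0 (median -0.62), and Col3a1 was called lower (-2.22, adjusted p = 0.0318). The part of such cells in these values was not tested. None of the 4 calls remained when CD24highCD49fmed replicate 3 was left out, or when all 14 arrays shared 1 estimate of the spread. Most calls of the whole table were lost as well. Of all 7190 rows, 3 were then higher and 0 lower, and 3 higher and 1 lower, against 217 and 185 in the main fit. Fits without either CD24medCD49f-/low array rest on a lone array of that population, so their calls are not given.

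**Figure D4:**
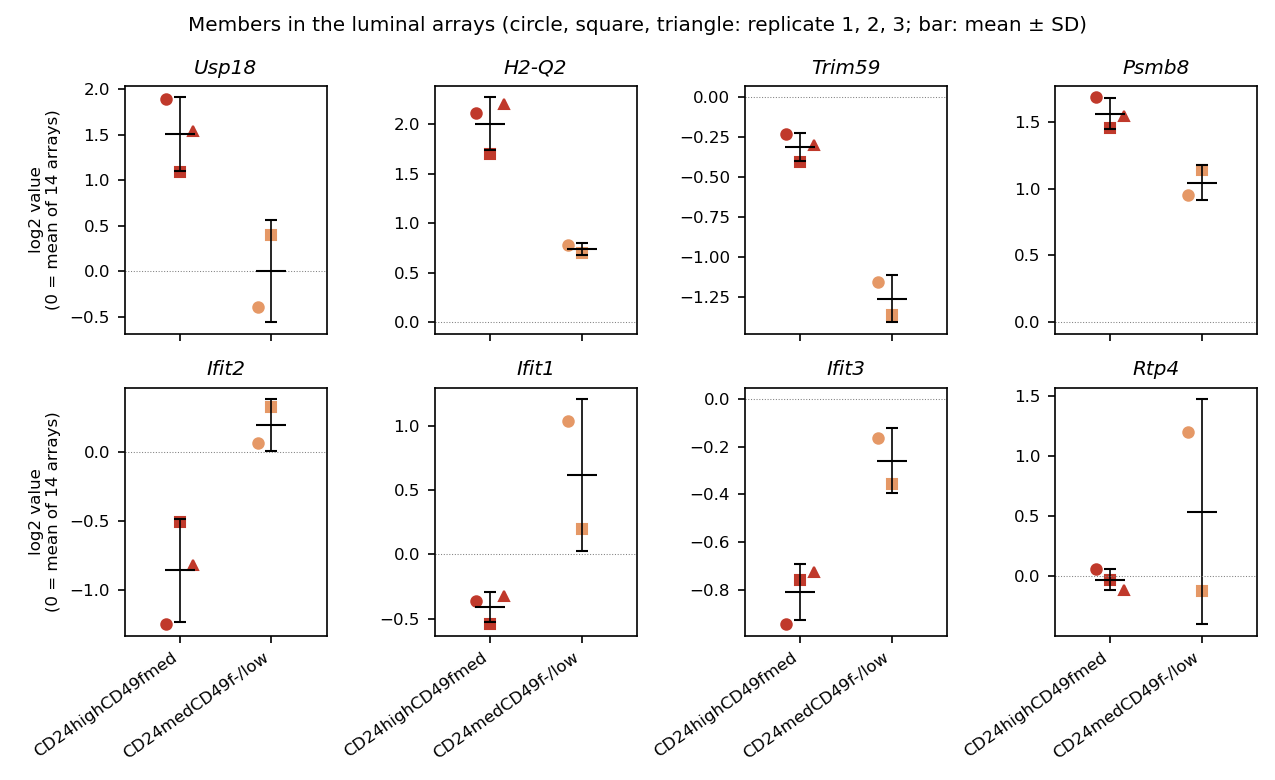
Log2 values (0 is the mean of 14 arrays) of 8 members in CD24highCD49fmed (left) and CD24medCD49f-/low (right) arrays, with points for replicates and bars for mean ± SD. Usp18, H2-Q2, Trim59 and Psmb8 lie higher and Ifit1, Ifit2 and Ifit3 lower in every CD24highCD49fmed array, of which Usp18, H2-Q2, Trim59 and Ifit2 were called.

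No member was called among the basal populations. Between Thy-1+ and Thy-1- cells 0 members were called by limma, against 0.0417% of all rows. An unadjusted p under 0.05 was held by 0 members, against 380 of 7190 rows. The differences nearest to a call were Ifit3 (1.27), Irf8 (1.24) and Ifnab (1.13) above 0 and Ifnar2 (-1.03), Ifnlr1 (-1.0) and Trim28 (-0.99) below it, all with an SE near 0.69 and an adjusted p of 0.755. Rank products called 0 members as well, against 2.27% of all rows. With array centring 5 members had an unadjusted p under 0.05 (316 of all rows), and with quantile normalization 5 (295 rows). With all 14 arrays in 1 fit 8 members did (1325 rows), and with array weights 12 (1728 rows). The spread in Thy-1+ cells was wide. Ifit3 was 1.49, 0.02 and 1.76 in Thy-1+ cells, against -0.34, 0.06 and -0.27 in Thy-1- cells. Irf8, a factor of myeloid and B cells, was 1.52, 0.16 and 1.00 in Thy-1+ cells, against -0.29, -0.21 and -0.54 in Thy-1- cells. In both genes Thy-1+ replicates 1 and 3, the arrays of low median, were the high ones. The lymphoid marker median was -1.45 and 1.06 in these arrays, and the myeloid marker median -0.55 and 0.10. The part of such cells in the values was not tested.

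Between Thy-1+ and CD24medCD49fmed cells 0 members were called (0.0% of all rows). An unadjusted p under 0.05 was held by 1 member, Irf8 (difference 1.26 ± 0.54, SE, adjusted p = 0.548), against 383 of 7190 rows. Ifnar2 differed by -1.23 and Irf2bp2 by -1.06. Without Thy-1+ replicate 2, which leaves both Thy-1+ arrays of low median, 3 members were called, Irf8 higher (against 1.14% of all rows) and Isg20l2 and Trim32 lower (against 10.8%). Between Thy-1- and CD24medCD49fmed cells 0 members were called (0.0% of all rows), and 1, Ido1, had an unadjusted p under 0.05, against 84 of 7190 rows. Ido1 was -0.89, -1.41 and 0.26 in Thy-1- cells, against -2.87, -2.96 and -0.95 in CD24medCD49fmed cells (difference 1.58 ± 0.60, SE, adjusted p = 0.999). The groups overlapped, and rank products called 2 members (against 2.25% of all rows). Rsad2 was -0.51, -0.49 and -1.11 in Thy-1- cells, against 1.93, 0.33 and -0.75 in CD24medCD49fmed cells.

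Several members were highest or lowest in single basal arrays. In Thy-1+ replicate 1 the median of the 6 GTPases was 1.48 and that of the 2 class II genes 2.28, with Gbp7 at 2.22, Gbp3 at 2.17 and Rsad2, an antiviral enzyme, at 2.13. Rsad2 was 1.93 in CD24medCD49fmed replicate 1, the other array with a high endothelial median. The pericyte median was 3.02 in Thy-1+ replicate 1 and 1.34 in CD24medCD49fmed replicate 1. In Thy-1- replicate 2 the class I median was -1.45 and the peptide supply median -1.41. The part of endothelial cells, pericytes, fibroblasts, myeloid and lymphoid cells and array quality in these values was not tested.

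**Figure D5:**
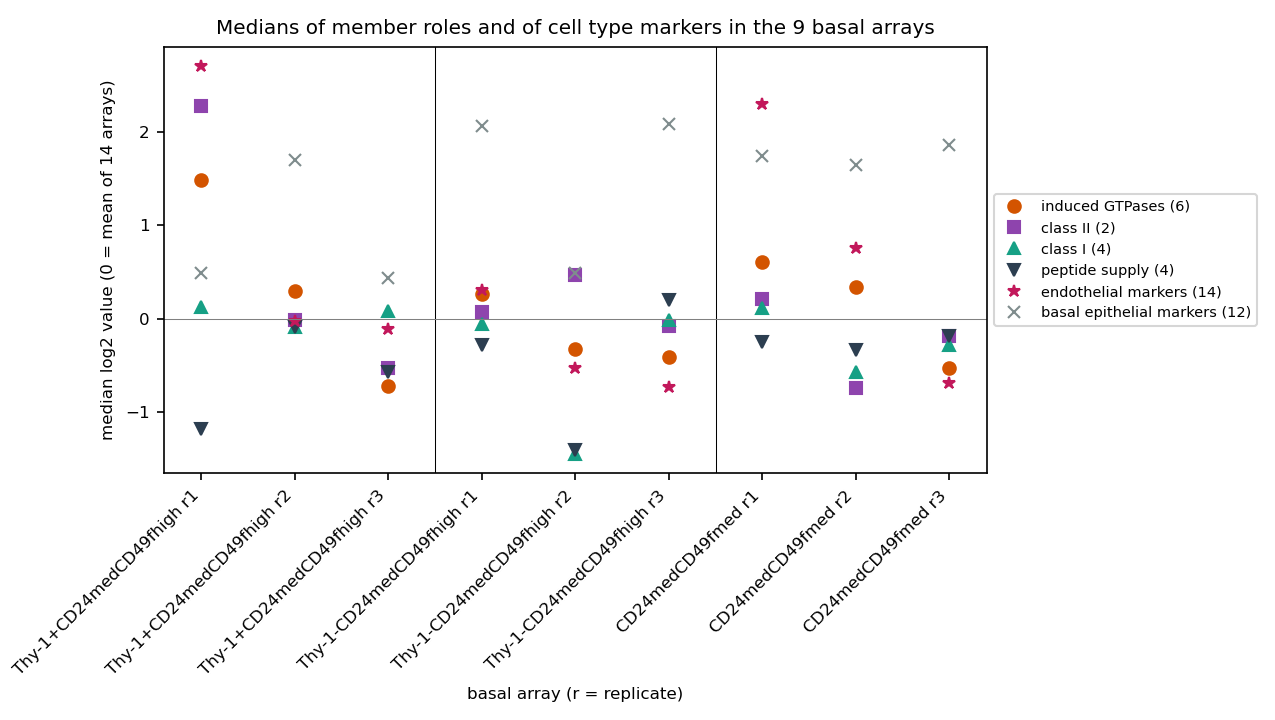
Median log2 value (0 is the mean of 14 arrays) of 4 member roles and of 2 marker lists in each of the 9 basal arrays, Thy-1+ left, Thy-1- in the middle and CD24medCD49fmed right, with the number of genes in the legend. GTPases (1.48), class II genes (2.28) and endothelial markers (2.70) are all highest in Thy-1+ replicate 1, and class I (-1.45) and peptide supply (-1.41) are lowest in Thy-1- replicate 2. Pericyte markers, also highest in Thy-1+ replicate 1 (3.02), are not drawn.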

How the data were processed

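The submitters hybridised RNA to 14 Affymetrix arrays after a pair of amplification cycles. Per the study's methods, the deposited log2 expression values were filtered for signal and for variation over the arrays, then centred per probe set. The methods name RMA and the processing notes both RMA and GCRMA. Which of them gave these values was not settled. The version of either was not given in the sources used here. Of 9645 probe sets, 8499 had 1 symbol, 199 several and 947 none in the platform annotation. Probe sets of 1 symbol were averaged per gene, and the others stayed as single rows, giving 7190 rows. Linear models of the group means with moderated variances were fitted by limma 3.58.1 (R 4.3.3). The luminal against basal comparison used all 14 arrays, and the others used only the arrays of both populations. Two-sided p-values were adjusted by Benjamini-Hochberg over all rows, at 0.05. The number of arrays limits the precision. The fit was tested on simulated data. Members, roles, markers and lists were chosen with earlier results of these data known.

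Named genes were, in each comparison, up to 10 called members in each direction (3 where none was called), the 4 members per role with the largest luminal minus basal difference, and a list of pathway genes. Alternatives were array centring, quantile normalization, probe sets as rows, array weights, a replicate block, rank products, each luminal population alone and each array left out. Arrays of the same replicate number correlated in deviation between CD24medCD49fmed and Thy-1+ (0.386 to 0.391) and between CD24medCD49fmed and Thy-1- (0.328 to 0.558). They did not between Thy-1+ and Thy-1- (-0.16 to 0.245), although pairing of both with CD24medCD49fmed would pair these as well. Whether replicates were paired was therefore not settled. The main fits were unpaired, and replicate numbers entered only through the replicate block, also fitted as a fixed term. The study's own comparisons used rank products.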

Additional observations from a re-analysis of the deposited data

Results flagged for a closer look

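In 52 groups of arrays a single array was compared with the rest of its compartment, and 6 values stood apart by Dixon's criterion. Its chance rate of about 1 in 20 holds for a single normal population. Each group here pools several populations, only called members were tested and the groups share arrays, so 6 of 52 cannot be set against that rate. In Thy-1+ replicate 3, Ifi202b was 3.91 (nearest basal array 1.38), Trim65 was 1.25 (nearest -0.30), H2-Q2 was 0.44 (nearest -0.54) and Ifih1 was 0.20 (nearest -0.49). In Thy-1- replicate 2, H2-K1 was -1.86 (nearest basal array -0.50). In CD24highCD49fmed replicate 1, Ido1 was 3.67 (nearest luminal array 2.73).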

How the results depend on the processing

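The 21 members higher in luminal cells were 9 with CD24medCD49f-/low alone and 9 by rank products, and 14 to 25 with 1 array left out. The main fit called 1989 of all 7190 rows higher, and CD24medCD49f-/low alone called 587 and rank products 546. The 5 lower members (1253 of all rows) were 11 with array centring (1560 rows), 9 with quantile normalization (1493) and 9 with array weights (1554). They were 3 with CD24medCD49f-/low alone (668 rows) and 2 by rank products (693). Without the 3 basal arrays of low median (chosen after seeing the data) they were 11 (1783 rows). With 1 array left out they were 4 to 10. Among these fits were 9 without Thy-1+ replicate 2 (1450 rows), 10 without Thy-1+ replicate 3 (1408) and 8 without Thy-1- replicate 2 (1222). For CD24highCD49fmed against CD24medCD49f-/low cells, the 3 higher members (217 of all rows) were 0 with all 14 arrays in 1 fit (3 rows). They were 0 to 4 with 1 CD24highCD49fmed array left out. The 1 lower member (185 of all rows) was 4 with array centring (276 rows), 3 with quantile normalization (237) and 2 with probe sets as rows (283 of 9645). It was 3 with a replicate block (223 rows), 4 with array weights (280) and 3 by rank products (286). It was 0 with all 14 arrays in 1 fit (1 row) and 0 to 4 with 1 CD24highCD49fmed array left out. A fit without 1 CD24medCD49f-/low array assumes that the lone array varies like the others, so its counts are left out. With a replicate block, luminal against basal gave 23 higher and 6 lower (2065 and 1309 of all rows), and the basal comparisons stayed at 0 members. The block as a fixed term, added after seeing the data, was fitted to the comparisons with CD24medCD49fmed and also gave 0 members. For Thy-1+ it called 15 of all rows higher and 40 lower, against 0 in the main fit. An unadjusted p under 0.05 was then held by 1226 rows and 3 members, against 383 rows and 1 member. For Thy-1- it called 0 rows. Thy-1+ against CD24medCD49fmed gave 0 to 3 with 1 array left out, and Thy-1- against CD24medCD49fmed gave 2 by rank products. Uncalled luminal minus basal differences that changed sign were H2-M3 (-0.078 with array centring, -0.13 with CD24medCD49f-/low alone, -0.0013 to 0.39 with 1 array left out, the lowest without Thy-1+ replicate 3), Ifit1 (-0.16 with array centring, -0.41 with CD24highCD49fmed alone, -0.11 to 0.31 with 1 array left out, below 0 without CD24medCD49f-/low replicate 1 or Thy-1+ replicate 3), Ifna11 (-0.40 to 0.15 with 1 array left out, the highest without Thy-1+ replicate 3) and, without the 3 basal arrays of low median, H2-DMb2 (0.048), Ifnab (0.015) and Irf8 (0.10). The cause was not tested. Over the named differences and settings, 960 kept direction and side of the threshold, 76 lost the call, 25 gained it and 11 changed sign. Centred values give no signal over background, so dim probe sets could not be told from bright ones.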
